A study of Arabidopsis thaliana with 4 samples.

Results

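The IQD genes of Arabidopsis thaliana encode plant proteins that bind calmodulin and microtubules. Genes were taken from probe sets that the array's probe annotation assigns to 1 gene, wherever the symbol was IQD followed by a number. That gave 15 genes, each with 1 probe set, among 13356 genes named by 13513 probe sets of this kind. Of these 15 genes, 8 were bright enough to be tested and 7 were not. A table of RefSeq genes lists 33 IQD genes, so 18 are not analysed here, among them the best studied members IQD1, IQD5, IQD8 and IQD13. The annotation writes some of the symbols in lower case (iqd21, iqd32, iqd15, iqd33), and capitals are used here throughout.

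IQD proteins carry the IQ67 domain, a stretch of repeated IQ motifs to which calmodulin, the main calcium sensor of the cell, can bind. Most members that have been studied decorate microtubules or sit at the plasma membrane, where they are thought to act as scaffolds. They are known for roles in the shape of growing cells, the patterning of the wall and the placing of the division plane. IQD1 also binds a kinesin light chain-related protein and was first described as a gene that raises glucosinolate levels.

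RNA of whole seedlings, 1 week old, was hybridised to 4 one-colour ATH1 arrays. The tested seedlings were exo70A1-2, a mutant of EXO70A1 labelled as Col-0 in strain, with 2 arrays, and they were set against wild-type Col-0 with 2 arrays. EXO70A1 is a subunit of the exocyst, which tethers secretory vesicles to the plasma membrane, and the design asks which transcripts differ in level in its mutant. Seedlings of both genotypes grew upright on 1.6% agar at 22 °C and 65% humidity in constant light, per the labels. The labels also give 3 days of cold and 75 seeds a plate for both genotypes. They do not say whether arrays of 1 genotype came from separate cultures. The p-values thus rest on a spread between arrays that could be technical only, and the precision is limited by there being 2 arrays a genotype. No probe set was named for EXO70A1 (0 matched), so the genotype labels were not checked by its level.

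Values are MAS5 signals, which are linear brightness values of a probe set with its mismatch probes subtracted, scaled alike on every array. A probe set was tested where its mean log2 signal over the 4 arrays reached the 40th percentile, a signal of 21.9, which is called the dim limit below. Array medians lay between 37.3 and 38.8. Log2 signals correlated at 0.987 between the exo70A1-2 arrays and at 0.980 between the Col-0 arrays, across 13648 tested probe sets that are not independent replicates. Shoot and root were both present in the material: the Rubisco activase gene RCA had signals of 4629 and 4764 in exo70A1-2 and 5572 and 4912 in Col-0, and the root and hypocotyl gene PYK10 had 4356 and 4440 in exo70A1-2 and 4551 and 4505 in Col-0. Of 15 tested marker genes of tissues and reference genes none passed (0 in limma at an adjusted p under 0.05, and 3 at an unadjusted p under 0.05). Among all tested probe sets the shares were 16% and 31.4%.

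Among the tested IQD genes 1 changed, and it was lower in the mutant. IQD21 (AT3G49260) fell by 0.62 on the log2 scale, a Col-0 level 1.53 times that of exo70A1-2. Of the other 7 tested IQD genes, 4 had a negative and 3 a positive log2 fold change, and none of these passed. The count of 1 in 8, or 12.5%, lies near the background, since 16% of all 13648 tested probe sets passed in either direction and 7.5% passed as lower.

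IQD21 had signals of 92.3 and 76.2 in exo70A1-2, against 145 and 114 in Col-0. Both mutant arrays lay below both Col-0 arrays. The fitted log2 fold change of -0.62 had a standard error of 0.17 and a 95% interval of -1.01 to -0.22 (limma, adjusted p = 0.0436). Setting each mutant array against each Col-0 array gave 4 log2 differences between -0.92 and -0.31. The adjusted p lies close to the threshold, and it ranged from 0.00112 to 0.251 over 13 other settings of the analysis, of which 9 kept the call. Leaving out exo70A1-2 replicate 2 ended the call (limma, adjusted p = 0.251), as did leaving out Col-0 replicate 1 (limma, adjusted p = 0.126). It also ended with no filter on dim probe sets (limma, adjusted p = 0.0731) and when the variance prior took no account of intensity (limma, adjusted p = 0.0736). Of the 9 settings that kept the call, the threshold of 0.10 did so by construction.

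**Figure D1:**
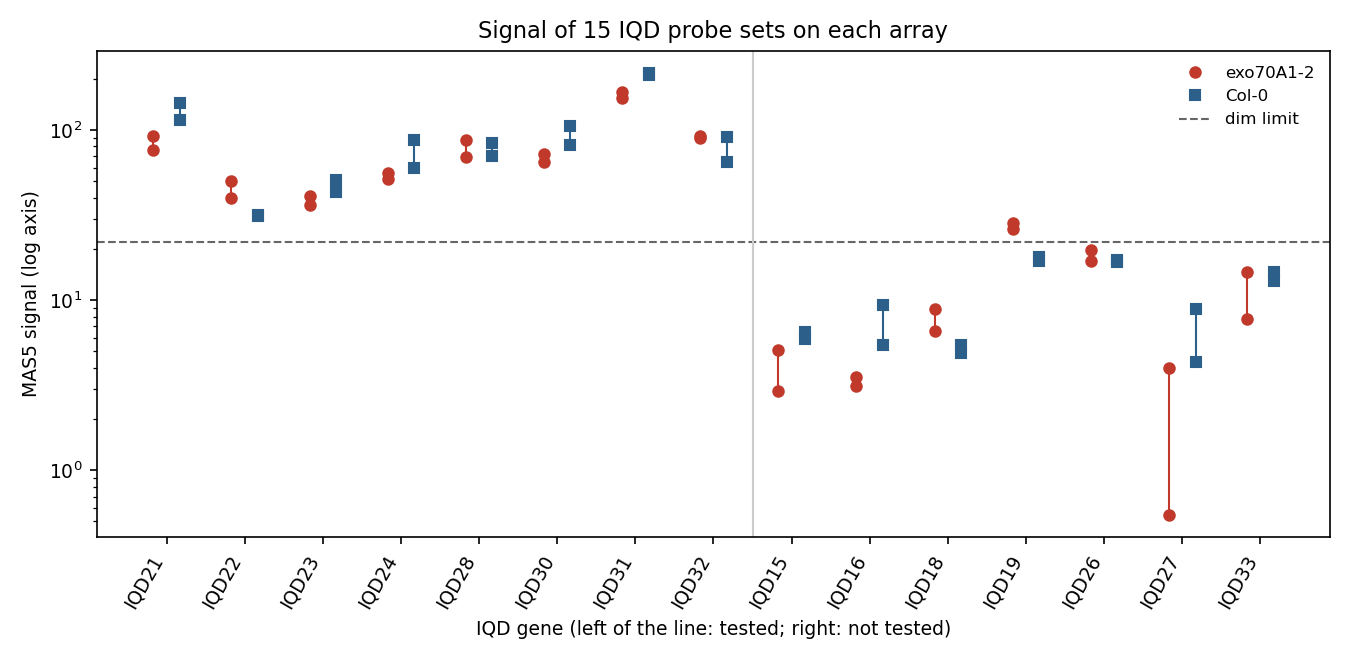
MAS5 signal (vertical, log axis) of the 15 IQD probe sets on each array, with red circles for the 2 exo70A1-2 arrays, blue squares for the 2 Col-0 arrays and a dashed line at the dim limit of 21.9. The 8 tested genes stand left of the vertical line. IQD21, at 92.3 and 76.2 in exo70A1-2 and 145 and 114 in Col-0, is the 1 that passed the test. The 7 untested genes stand right of it, and only IQD19 crosses the dim limit there.

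IQD31 (AT1G74690) had closely agreeing arrays within each genotype. Its signals were 154 and 166 in exo70A1-2, against 217 and 211 in Col-0. The genotypes did not overlap, and the replicates differed by 0.11 on the log2 scale or less. The log2 fold change of -0.42 (SE 0.13, 95% interval -0.70 to -0.13) just missed the threshold (limma, adjusted p = 0.0551). IQD31 passed in 5 of 13 other settings, among which the threshold of 0.10 passed it by construction. The 5 included both other scalings of the arrays, where the adjusted p was 0.0452 with equal array medians and 0.0474 after quantile normalization (limma).

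IQD30 (AT1G18840) had signals of 72.1 and 64.5 in exo70A1-2, against 106 and 82.2 in Col-0. Here too the mutant arrays lay below the Col-0 arrays, but the Col-0 arrays lay 0.36 apart on the log2 scale, nearly as far as the genotypes. The log2 fold change was -0.45 (SE 0.17) and did not pass (limma, adjusted p = 0.116). Without Col-0 replicate 2 it was -0.63 and passed (limma, adjusted p = 0.0253), and without Col-0 replicate 1 it was -0.27 and did not (limma, adjusted p = 0.370).

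IQD24 (AT5G07240) had signals of 55.8 and 51.4 in exo70A1-2, against 87.6 and 59.7 in Col-0. The genotypes did not overlap, yet the 2 Col-0 arrays differed by 0.55 on the log2 scale, more than the fitted difference between genotypes of -0.43 (SE 0.21, limma, adjusted p = 0.190). The size rests on Col-0 replicate 1: the log2 fold change was -0.71 without Col-0 replicate 2, where it passed (limma, adjusted p = 0.0189), and -0.16 without Col-0 replicate 1.

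IQD23 (AT5G62070) had signals of 40.9 and 36.2 in exo70A1-2, against 43.3 and 51.1 in Col-0. These stood apart only narrowly, with a log2 difference of -0.084 between the nearest arrays. The log2 fold change was -0.29 (SE 0.19, 95% interval -0.72 to 0.14) and did not pass (limma, adjusted p = 0.335). It was -0.17 without Col-0 replicate 2 and -0.41 without Col-0 replicate 1.

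IQD22 (AT4G23060) was the 1 tested member with both mutant arrays above both Col-0 arrays. It is known from studies of gibberellin signalling, in which it was listed among early targets of the DELLA growth repressors. Its signals were 39.6 and 50.1 in exo70A1-2, against 31.5 and 31.2 in Col-0. The Col-0 arrays agreed to within 0.010 on the log2 scale, and the mutant arrays lay 0.34 apart. The log2 fold change of 0.51 (SE 0.20, 95% interval 0.048 to 0.97) did not pass (limma, adjusted p = 0.125), and it passed in 0 of the 12 other settings that tested it. Without exo70A1-2 replicate 2 it was 0.34.

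IQD32 (AT1G19870) had signals of 92.4 and 90.2 in exo70A1-2, against 64.9 and 90.6 in Col-0. The genotypes overlapped, because Col-0 replicate 2 stood at the level of the mutant arrays. The log2 fold change was 0.25 (SE 0.18, limma, adjusted p = 0.391), and it was 0.012 without Col-0 replicate 1 and 0.49 without Col-0 replicate 2.

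IQD28 (AT1G14380) had signals of 69.4 and 87.2 in exo70A1-2, against 83.9 and 70.7 in Col-0. The Col-0 arrays lay between the mutant arrays. The log2 fold change was 0.014 (SE 0.18, limma, adjusted p = 0.967). Its 95% interval of -0.39 to 0.42 leaves room for a mutant level between 0.764 and 1.34 times that of Col-0. The estimate for IQD28 does not tell changes within that interval apart.

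**Figure D2:**
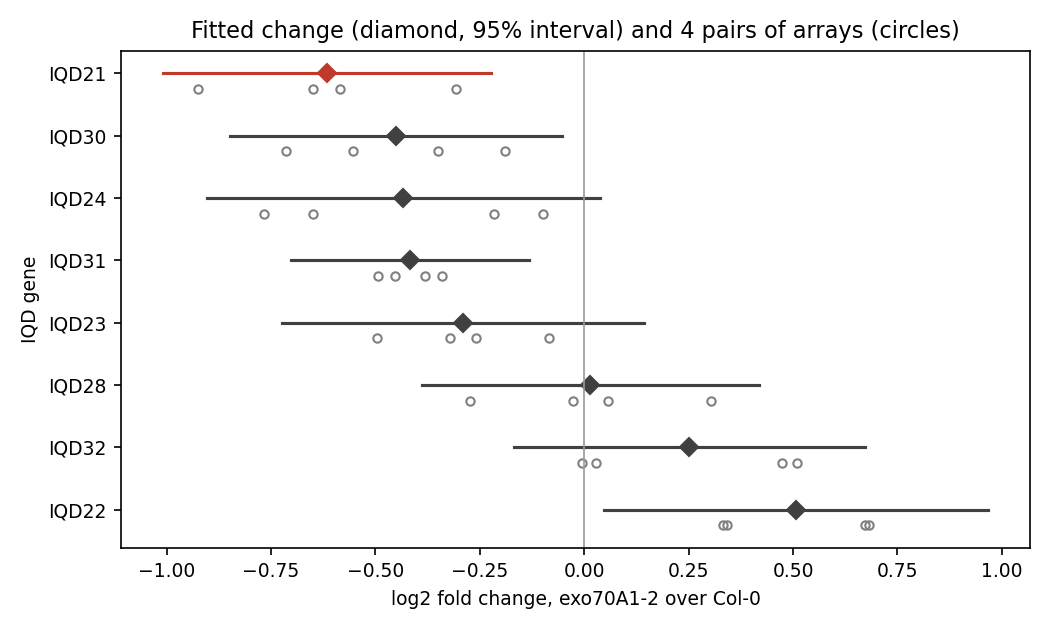
Log2 fold change of exo70A1-2 over Col-0 (horizontal) for the 8 tested IQD genes. Diamonds and bars give the limma estimate and its 95% interval, in red where the adjusted p was under 0.05, and open circles give the 4 differences between single arrays of the mutant and of Col-0. The circles of 6 genes lie on 1 side of zero, those of IQD28 and IQD32 on both, and only IQD21, at -0.62, is red.

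Taken as a list, the 8 tested IQD genes had a median log2 fold change of -0.35, beside -0.00086 over all 13648 tested probe sets. Without Col-0 replicate 1 the median of the IQD genes was -0.21, and their count of lower calls was 0. That count was 0 as well on leaving out exo70A1-2 replicate 2, but 3 on leaving out Col-0 replicate 2. The share of all tested probe sets that passed moved too, to 7.13% on leaving out exo70A1-2 replicate 2, to 14.6% on leaving out Col-0 replicate 1 and to 22.3% on leaving out Col-0 replicate 2. The median absolute log2 fold change was 0.42 for the IQD genes and 0.24 for all tested probe sets. The genotypes did not overlap for 6 of the 8 IQD genes, 5 lower and 1 higher in exo70A1-2, where 60.6% of all tested probe sets did not overlap and 30.6% did so as lower. At an unadjusted p under 0.05 (limma) stood 4 of the 8, namely IQD21, IQD30 and IQD31 on the lower side and IQD22 on the higher, beside 31.4% of all tested probe sets. No tested IQD gene passed as higher (0 in limma, and 1 at an unadjusted p under 0.05).

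**Figure D3:**
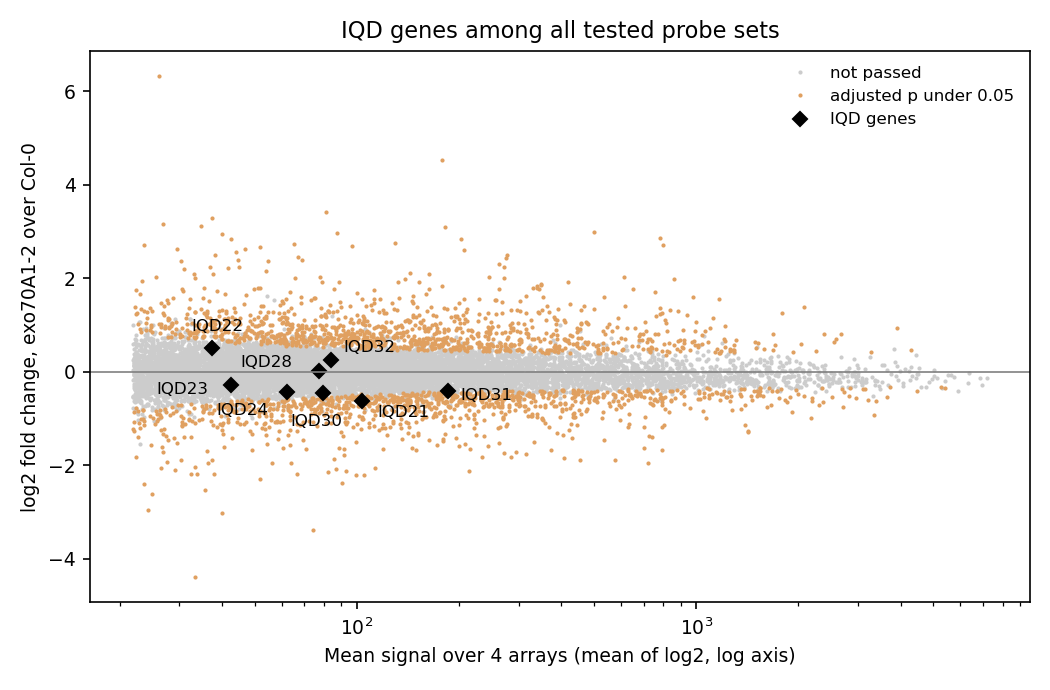
Log2 fold change of exo70A1-2 over Col-0 (vertical) against the mean signal over 4 arrays (horizontal, log axis) for 13648 tested probe sets, in orange where the adjusted p was under 0.05 and in grey otherwise. Black diamonds are the 8 tested IQD genes. They lie between -0.62 and 0.51, inside or at the edge of the grey band.

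The replicates of the tested IQD genes were less alike in Col-0 than in exo70A1-2. The median absolute difference between replicates was 0.17 on the log2 scale in exo70A1-2 and 0.29 in Col-0, beside 0.15 in exo70A1-2 and 0.19 in Col-0 over all tested probe sets. Col-0 replicate 1 stood above Col-0 replicate 2 for 6 of the 8 genes, beside 49.0% of all tested probe sets. In exo70A1-2 replicate 1 stood above replicate 2 for 5 of the 8, beside 49.7%. For 3 genes, IQD24, IQD28 and IQD32, the Col-0 replicates differed by more than the genotypes did. The exo70A1-2 replicates did so for 1, IQD28.

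The 7 untested members were dim, and they are given by their signals without a call. IQD19 (AT4G14750) lay just outside the filter, with a mean of 21.8 taken on the log2 scale, where the nearest tested member, IQD22, had 37.4. Its signals were 28.6 and 26.1 in exo70A1-2, against 16.9 and 17.9 in Col-0. Both mutant arrays lay above the dim limit and both Col-0 arrays below it. The mutant mean, taken on the log2 scale, was 1.25 times that limit. The limit is a filter, so this ratio sets no bound on the change. With no filter on dim probe sets, IQD19 had a log2 fold change of 0.65 (SE 0.28) and did not pass (limma, adjusted p = 0.229).

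IQD15 (AT3G49380), IQD16 (AT4G10640) and IQD18 (AT1G01110) belong to 1 branch of the family, whose members have been linked to auxin response in embryos and bind the microtubule protein SPIRAL2. Strong expression of IQD16 is known to alter cell shape and the order of microtubules. All arrays of these genes lay below the dim limit. IQD15 had 5.09 and 2.93 in exo70A1-2, against 6.53 and 5.89 in Col-0. IQD16 had 3.13 and 3.51 in exo70A1-2, against 5.44 and 9.42 in Col-0. IQD18 had 6.57 and 8.87 in exo70A1-2, against 4.88 and 5.45 in Col-0. Signals this low carry no fold here, since MAS5 values near background are noisy.

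IQD26 (AT3G16490) had 17.0 and 19.6 in exo70A1-2, against 17.2 and 16.8 in Col-0, and IQD33 (AT5G35670) had 14.7 and 7.76 in exo70A1-2, against 14.6 and 12.9 in Col-0. The genotypes overlapped for both. IQD27 (AT1G51960) had 0.548 and 3.98 in exo70A1-2, against 4.31 and 8.84 in Col-0. The mutant arrays did not overlap those of Col-0, but mutant replicate 1 minus replicate 2 was -2.86 on the log2 scale.

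All 15 IQD probe sets have the plain form of identifier that the manufacturer gives to probe sets designed against 1 transcript. The IQD genes do not neighbour each other on the chromosomes (0 adjacent pairs among the 15). Of the 30 protein-coding genes next to them, 16 had a probe set of 1 gene and 11 were tested. None of the 11 passed (0 in limma, and 2 at an unadjusted p under 0.05), and their median log2 fold change was -0.024. For all tested probe sets, 16% passed and 31.4% had an unadjusted p under 0.05 (limma), so 0 of so few genes does not set the neighbours apart.

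Tubulins, which form the microtubules that IQD proteins bind, were covered by 7 probe sets, all tested. Of these 2 passed as lower and 1 as higher, 3 of 7 beside the 16% of all tested probe sets, and the list's median log2 fold change was -0.32. TUA6, an alpha-tubulin gene, had signals of 1272 and 1141 in exo70A1-2, against 1675 and 1798 in Col-0, and fell by 0.53 (SE 0.10, limma, adjusted p = 0.0122). TUB9, a beta-tubulin gene, had signals of 421 and 419 in exo70A1-2, against 570 and 564 in Col-0, and fell by 0.43 (limma, adjusted p = 0.0265). TUA1, an alpha-tubulin gene known mainly from pollen, had signals of 94.2 and 105 in exo70A1-2, against 60.2 and 70.6 in Col-0, and rose by 0.61 (limma, adjusted p = 0.0345).

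The arrays of the genotypes did not overlap for any of the 7 tubulin genes, 6 lower and 1 higher in exo70A1-2. Over all tested probe sets 60.6% did not overlap. TUB5, TUB6 and TUB7 stood at log2 fold changes of -0.091, -0.31 and -0.41 and did not pass. TUB7 lay near the threshold (limma, adjusted p = 0.0525) and passed with equal array medians (limma, adjusted p = 0.0405) and with a filter at the 60th percentile (limma, adjusted p = 0.0472). The call for TUA6 ended without exo70A1-2 replicate 2 (limma, adjusted p = 0.132). That for TUB9 ended without exo70A1-2 replicate 1 (limma, adjusted p = 0.130) or replicate 2 (limma, adjusted p = 0.180). The call for TUA1 ended without exo70A1-2 replicate 1 (limma, adjusted p = 0.0746), exo70A1-2 replicate 2 (limma, adjusted p = 0.229) or Col-0 replicate 1 (limma, adjusted p = 0.0808), and also when dim probe sets were kept (limma, adjusted p = 0.0567). Without the intensity trend all 3 calls ended, at adjusted p values of 0.0608 for TUA6, 0.0809 for TUB9 and 0.0505 for TUA1 (limma).

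Of 22 genes of other microtubule-associated proteins 12 were tested. Where 16% of all tested probe sets passed, 1 of the 12 (8.3%) did, as higher. It was TRM26, of the TON1 recruiting motif family, some members of which bring TON1 and a phosphatase to microtubules. TRM26 had signals of 41.8 and 52.6 in exo70A1-2, against 22.8 and 24.3 in Col-0, a log2 fold change of 0.99 (SE 0.21, limma, adjusted p = 0.0154). Both mutant arrays lay above both Col-0 arrays, and the call ended without exo70A1-2 replicate 2 (limma, adjusted p = 0.141). SPR1, which encodes the microtubule protein SPIRAL1, stood at -0.21, its relative SP1L3 at -0.24 and TRM20 at -0.075, and none of these passed. The median over the 12 was -0.063.

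Of 8 calmodulin-like genes, whose products sense calcium as calmodulin does, 4 were tested and 0 passed (limma, and 0 at an unadjusted p under 0.05). Those shares were 16% and 31.4% over all tested probe sets. CML42, known for a role in trichome branching, stood at a log2 fold change of 0.075, CML30 at 0.15 and CML38 at -0.22, and the median over the 4 was 0.11. The calmodulin genes themselves, kinesin light chain-related genes, other IQ-motif families and the OVATE family had no named probe set in the annotation used and are not analysed here. IQD1 was first described through glucosinolates, and of the list of genes of their synthesis only UGT74B1 and BCAT4 were found by name. Both passed as lower, where 7.5% of all tested probe sets did, and 2 genes do not describe the pathway. UGT74B1, a glucosyltransferase of the glucosinolate core, had signals of 166 and 128 in exo70A1-2, against 352 and 317 in Col-0, and fell by 1.19 on the log2 scale (SE 0.15, limma, adjusted p = 0.00186). BCAT4, of methionine chain elongation, fell by 0.98 (limma, adjusted p = 0.00375).

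**Figure D4:**
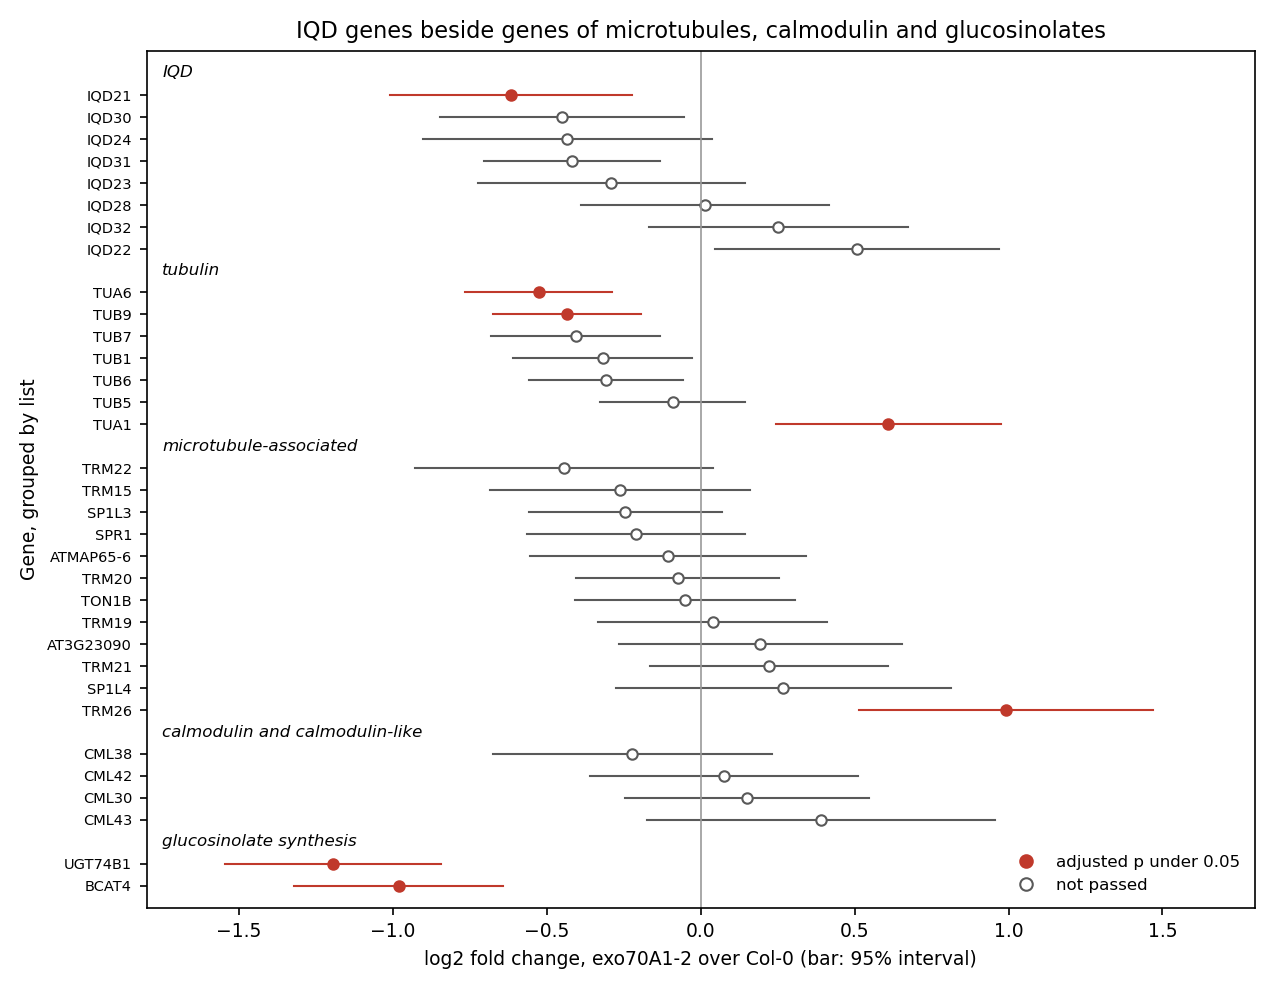
Log2 fold change of exo70A1-2 over Col-0 (horizontal) with its 95% interval for the tested IQD genes and the tested members of 4 other gene lists. Filled red points had an adjusted p under 0.05 in limma and open points did not. Filled points are IQD21 among the IQD genes, TUA6, TUB9 and TUA1 among tubulins, TRM26 among other microtubule-associated genes, none among calmodulin-like genes, and UGT74B1 and BCAT4.

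Whole seedlings hold many cell types, and in such material fewer cells of a type and less RNA per cell cannot be told apart. Markers of dividing cells and of the stomatal lineage lay lower in exo70A1-2, as did 5 of the 8 tested IQD genes. Over all tested probe sets 50.1% had a negative log2 fold change, 16% passed and 31.4% had an unadjusted p under 0.05 (limma). The mitotic kinase genes AUR1 and AUR2 had summed signals of 161 and 147 in exo70A1-2, against 187 and 203 in Col-0, and 0 of the 2 passed (limma, 1 at an unadjusted p under 0.05). Of the 4 genes listed for the stomatal lineage, 3 were tested and 0 passed (limma, 2 at an unadjusted p under 0.05). SPCH had signals of 24.1 and 19.9 in exo70A1-2, against 38.9 and 28.5 in Col-0. FMA had 32.1 and 33.5 in exo70A1-2, against 47.5 and 46.0 in Col-0. STOMAGEN had 181 and 154 in exo70A1-2, against 204 and 197 in Col-0, most of the list's signal. It is not read here as a marker of lineage cells. None of these markers is listed at 0. MUTE, the 1 not tested, had signals of 1.25 and 1.91 in exo70A1-2, against 5.41 and 6.24 in Col-0. All 4 of its arrays lay below the dim limit, so its signals carry no fold here. The part of these markers in the IQD values was not tested.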

How the data were processed

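Per the labels' protocols, a kit for 3' in vitro transcription put biotin on the RNA. MAS5 and GCOS are named in the submitters' processing notes. The deposited table holds a linear intensity for each probe set on each array. With 2% of all 22810 probe sets trimmed at either end, the mean was 100.01 on each array, so the authors appear to have scaled to a target of 100. No scanner file or detection call was used.

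Signals were put on the log2 scale as they stood. The 64 control probe sets were left out. Genotypes were compared over 13648 probe sets with limma 3.58.1 in R 4.3.3 (lmFit, eBayes with an intensity trend, two-sided, prior degrees of freedom 6.66), Benjamini-Hochberg adjustment over all of them and a threshold of 0.05. The fit was tested on simulated data. Names came from a probe annotation of the array and the RefSeq table of TAIR10.1, which matched 13436 of 13513 probe sets of 1 gene; 503 had several genes and 8730 were unnamed. Locus identifiers but no coordinates are given, since the values carry no genome build. TRM82, a tRNA methyltransferase, was removed from the microtubule list.

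Named genes are all IQD members and, of each other list, up to 3 that passed and the 3 brightest that did not, plus markers. The members, lists and tests were chosen with earlier results of these data known. The alternatives were 2 other scalings, other filters, 16 added to each signal, other variance priors, a block for the replicate number, fits without single arrays and a threshold of 0.10. Figures were drawn with matplotlib 3.10.9.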

Additional observations from a re-analysis of the deposited data

How the results depend on the processing

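All 13 alternatives were planned. The number of IQD genes lower in exo70A1-2, 1 in the reported fit, was 2 with equal array medians, after quantile normalization, with a filter at the 60th percentile and, by construction, at a threshold of 0.10, settings in which 16.7%, 16%, 20% and 24.1% of all tested probe sets passed. It was 0 with no filter (7.12% of all) and 0 without the intensity trend (11.4% of all), and between 0 and 3 on leaving out single arrays, a fit in which the remaining array of that genotype is taken to vary as the other genotype does. The number higher was 0 under all 13. The median log2 fold change of the IQD genes was -0.42 with the filter at the 60th percentile, which left fewer genes, -0.28 with 16 added to each signal, and between -0.37 and -0.21 on leaving out single arrays. IQD28, which did not pass, changed sign to -0.017 with equal medians and -0.028 after quantile normalization, and to -0.15 and -0.11 without exo70A1-2 replicate 2 or Col-0 replicate 2, in a range up to 0.18 on leaving out single arrays. CML42 did so at -0.076 and -0.14 without exo70A1-2 replicate 1 or Col-0 replicate 2, in a range up to 0.29. With the replicate block, 3 IQD genes were lower (IQD21, IQD30 and IQD31), TUB6 and TUB7 passed too, 31.3% of all passed, and over all probe sets 2168 were higher and 2098 lower, against 1165 and 1024. The correlation between genotypes of the difference between their replicates was 0.28, but there are only 2 pairs and the labels say nothing of a shared factor, so arrays were not treated as paired. On leaving out single arrays, between 577 and 1696 of all probe sets were higher and between 396 and 1347 lower, with the fewest without exo70A1-2 replicate 2; 679 were lower without the intensity trend and 1599 at a threshold of 0.10. The cause of these differences was not tested unless stated. Noisy MAS5 signals near background limit the 7 dim IQD genes.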
